A study of Mus musculus with 21 samples.

Results

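The comparison set 2 arrays of MIN6m9 cells that carried the transgene Fv2E-PERK and were harvested 48 h after 1 nM AP20187 was added (the 48 h arrays) against 2 arrays of wild-type MIN6m9 cells given the mock treatment (WT mock), chosen by their titles from 21 arrays in all. MIN6m9 is a subclone of MIN6, a beta cell line made from an insulinoma of a transgenic mouse, and both groups are of this line. Mock is the vehicle, ethanol, per the labels, and the time at which mock cells were harvested is not stated. Genotype and treatment differed together between the groups, so what the transgene brings without the drug and what the drug brings cannot be told apart in this contrast alone. A further group, Fv2E-PERK cells with the mock treatment (Fv2E-PERK mock, 2 arrays), was therefore set beside it. Wild-type cells given AP20187 were not analysed here. The sources used here do not give the promoter of the transgene, or say whether the Fv2E-PERK cells are 1 clone. Nothing in the labels says that the arrays of a group came from separate cultures, so a p-value reflects the spread between these arrays alone, and that spread may be technical.

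PERK, encoded by Eif2ak3, is a kinase of the endoplasmic reticulum (ER) membrane that is switched on by unfolded protein in the ER and phosphorylates the translation factor eIF2. Phosphorylated eIF2 slows general protein synthesis and favours translation of the transcription factor ATF4, whose targets supply amino acids, charge tRNAs, and, through CHOP (Ddit3) and GADD34 (Ppp1r15a), feed back on the response. This branch is the integrated stress response (ISR), and the beta cell, which folds large amounts of proinsulin, is known to need PERK. Fv2E-PERK joins the kinase domain of PERK to domains that bind AP20187, so that the drug brings the kinases together without unfolded protein.

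ATF4 and CHOP, bound with C/EBP partners, are known to use a composite element with the letters TGATGNAA. Promoter sequences are shown for 6 ISR and amino acid genes that were higher on the 48 h arrays, because they are the raised members with the largest change among those that hold these letters, on either strand, in the 250 bases before the gene's start. They come from RefSeq, build GRCm38.p6, each as 100 bases read 5′ to 3′ on the gene's strand, with the matching letters in capitals; TTGCATCA is the same element on the opposite strand. Atf3 (minus strand, chr1:191183390-191183489) encodes a transcription factor induced by stress, Slc7a11 (minus strand, chr3:50443614-50443713) the cystine transporter, and Jdp2 (plus strand, chr12:85599316-85599415) a partner of the AP-1 factors. Fgf21 (minus strand, chr7:45615576-45615675) encodes a secreted hormone, Aars (plus strand, chr8:111033684-111033783) the alanyl-tRNA synthetase, and Chac1 (plus strand, chr2:119351003-119351102) an enzyme that degrades glutathione.
Atf3: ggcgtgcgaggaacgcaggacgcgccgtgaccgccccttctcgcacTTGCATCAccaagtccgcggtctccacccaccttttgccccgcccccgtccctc
Slc7a11: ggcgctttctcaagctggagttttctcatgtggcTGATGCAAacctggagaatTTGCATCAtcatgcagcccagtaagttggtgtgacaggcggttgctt
Jdp2: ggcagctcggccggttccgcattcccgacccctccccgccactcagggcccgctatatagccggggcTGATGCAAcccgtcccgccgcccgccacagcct
Fgf21: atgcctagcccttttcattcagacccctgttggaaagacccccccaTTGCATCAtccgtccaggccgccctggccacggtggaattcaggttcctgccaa
Aars: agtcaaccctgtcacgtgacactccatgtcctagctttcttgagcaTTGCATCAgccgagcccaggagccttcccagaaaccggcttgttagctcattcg
Chac1: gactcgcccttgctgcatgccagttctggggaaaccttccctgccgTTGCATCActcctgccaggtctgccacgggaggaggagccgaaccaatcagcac
The Slc7a11 window holds 2 matches and the other windows 1 each. In 6 lists described below (ISR transcription factors, ISR feedback genes, ISR hormones, amino acid enzymes, transporters and tRNA synthetases) 51 tested members were raised, of which 38 matched a RefSeq promoter. The letters were found before 12 of these 38 (31.58%), before 1 of the 11 members not raised (9.091%), and before 1056 of 27025 genes with a RefSeq promoter (3.907%; 3.452% of all 32851 promoters). A match describes the sequence and is not a binding site measured here.

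Signals are given as log2 of the processed signal relative to the array's 75th percentile, so a value of 0 is the signal that 75% of the probes do not exceed, and differences between groups are log2 changes. Replicate arrays correlated at 0.9941 in WT mock, 0.9940 in Fv2E-PERK mock and 0.9960 at 48 h over the entries tested below. The 48 h arrays were brighter: the signal at the 75th percentile was 823 and 739 against 423 and 380 for WT mock and 463 and 391 for Fv2E-PERK mock, and 56.0 and 56.9% of probes lay well above background against 50.9 and 52.2% and 49.0 and 46.8%. WT mock and the 48 h arrays lay on the same slide, so the contrast is within a slide, while Fv2E-PERK mock lay on another, and slide and group cannot be told apart in any comparison with it. The beta cell genes that define the line were far above background: Ins1 and Ins2, the insulin genes, had signals of 9.08 to 10.14 on these 4 arrays.

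Of 23388 entries tested (gene symbols, or accessions where no symbol was found), 14930 differed between the 48 h arrays and WT mock at an adjusted p under 0.05 (limma, Benjamini-Hochberg over all entries), which is 63.8%. Of these 6438 were higher (27.5% of those tested) and 8492 lower (36.3%), 5512 changed by at least 2-fold (2690 higher, 2822 lower), and the median change over all entries was -0.10. The same fit called 14454 entries (61.8%; 6356 or 27.2% higher, 8098 or 34.6% lower) between the 48 h arrays and Fv2E-PERK mock. Between the mock groups it called 4679 (20%; 2159 or 9.23% higher in Fv2E-PERK cells, 2520 or 10.8% lower), a count that fell to 2864 and 3038 without WT mock replicate 1 or 2 and to 2642 and 2765 without Fv2E-PERK mock replicate 1 or 2. With so large a share called, a group of genes is described below by its counts and median beside these values, with no test of the group. The 3 contrasts share arrays and are given side by side only.

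The split into higher and lower depends on the scaling. In the 48 h against WT mock contrast 43.1% of called entries were higher, against 49.1% with quantile normalization, 49.1% with normexp background correction and quantile normalization, and 89.4% when the arrays were scaled on 7 spike-in control probes, which moved the median of all entries by 0.71. In log2, the 75th percentile relative to these controls was -3.25 and -2.84 on the 48 h arrays and -3.75 and -3.77 in WT mock. In Fv2E-PERK mock it was -3.48 and -3.78. Spike-in scaling thus sets the replicates apart at 48 h and in Fv2E-PERK mock, which adds to the spread under that scaling. In bins of signal set after the data were seen, bright genes leaned lower: of the 1119 entries with a mean signal over 6, 952 (85.1%) were called lower and 46 (4.11%) higher, with a median change of -0.82, whereas after quantile normalization the same entries had a median of -0.06. Of 195 listed or named genes called lower, 16 were above 0 with quantile normalization, 11 with normexp and 66 with spike-in scaling, while 0 of the 175 called higher fell below 0 under any of these. A fall named below that turned so is marked, and a fall with no mark may still not be called under another scaling. Of all 8492 entries called lower, 7221 were still called lower with quantile normalization, 7029 with normexp and 1346 with spike-in scaling. Of 29 lists of genes, 11 had a median above 0 and 4 a median below 0 under all 4 scalings, and 14 had medians on both sides.

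**Figure D1:**
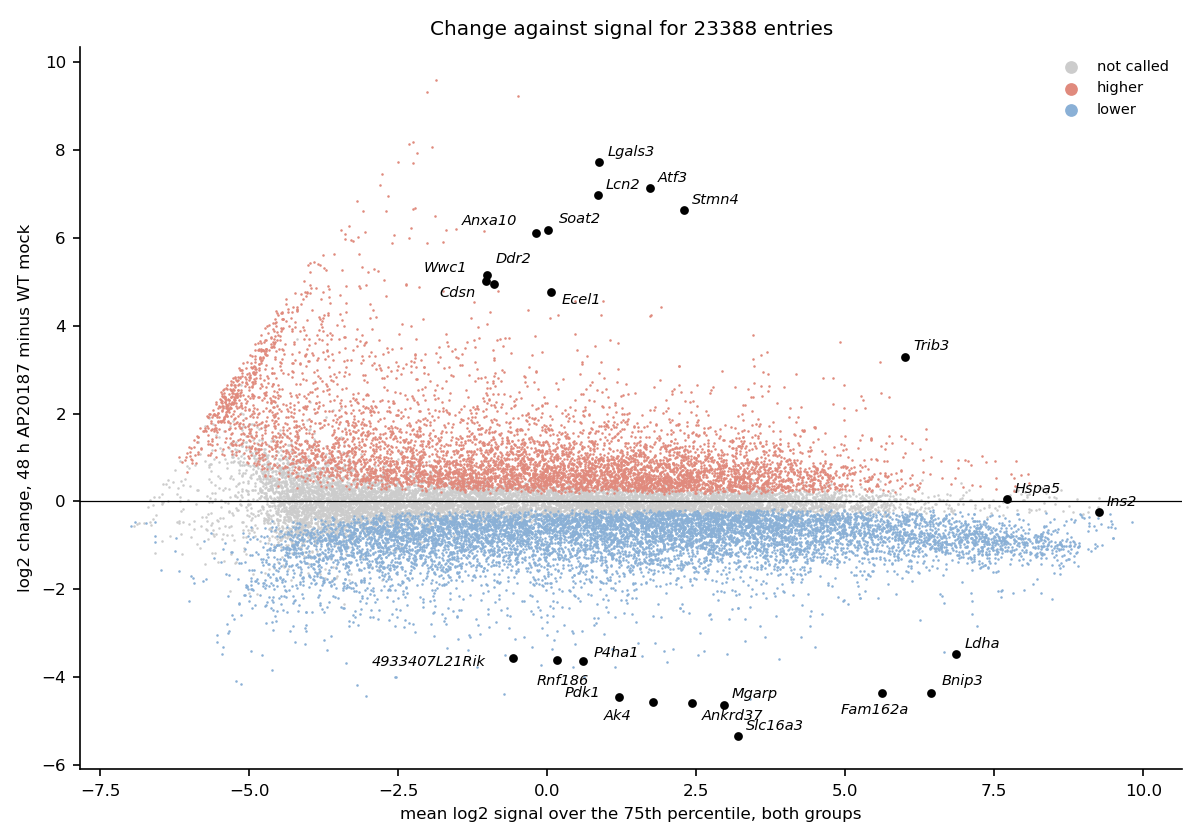
Log2 change from WT mock to the 48 h arrays against the mean log2 signal of both groups, 1 point for each of 23388 entries, coloured by the call of the limma fit. The 10 largest rises and the 10 largest falls among genes above background in both groups are labelled with 4 other genes; of 1119 entries with a mean signal over 6, 952 are called lower under this scaling, and their median is near 0 after quantile normalization.

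Among genes well above background on all 4 arrays, the largest rise was that of Lgals3, which encodes the sugar-binding protein galectin-3. Its signal was -3.15 and -2.83 in WT mock and 4.77 and 4.68 at 48 h, a change of 7.72 (SE 0.17) or 210.4-fold (limma, adjusted p = 5.38e-08). In Fv2E-PERK mock it was -2.37 and -2.37. The groups lay far apart on either side of the array's 75th percentile. Atf3 rose from -1.92 and -1.78 to 5.25 and 5.31, a change of 7.13 (SE 0.08, limma adjusted p = 3.41e-09), with -1.18 and -1.30 in Fv2E-PERK mock. Lcn2, which encodes the iron-scavenging secreted protein lipocalin-2, rose from -2.50 and -2.78 to 4.26 and 4.40, a change of 6.96 (SE 0.17, limma adjusted p = 6.88e-08), and its Fv2E-PERK mock signals of -2.72 and -2.30 overlapped those of WT mock. The 7 other genes of the 10 largest rises changed by 4.77 to 6.63: Stmn4 (a stathmin, 6.63), Soat2 (cholesterol esterification, 6.19), Anxa10 (an annexin, 6.10), Ddr2 (a collagen receptor kinase, 5.14), Wwc1 (the Hippo pathway protein KIBRA, 5.02), Cdsn (corneodesmosin, 4.95) and Ecel1 (a membrane metalloprotease, 4.77).

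Other genes rose from a signal not well above background on either WT mock array, so that their rise is a lower bound, set against the lowest signal well above background. Car6, a secreted carbonic anhydrase, was at 4.14 and 4.10 at 48 h and at least 366.5-fold higher (limma adjusted p = 2.97e-08). Gpnmb, a glycoprotein of lysosomes and melanosomes, was at 2.96 and 2.89 and at least 160.3-fold higher (limma adjusted p = 7.27e-08). Gpnmb already differed between the mock groups, by a log2 change of 2.76 taken from a WT mock signal below background. Over Fv2E-PERK mock its log2 change at 48 h was 6.84. P2rx7, an ATP-gated ion channel, was at least 131.2-fold higher, Acox2, a peroxisomal oxidase, at least 90.24-fold, and Slco1b2, an organic anion transporter, at least 75.01-fold. In all 5 both 48 h arrays lay above both WT mock arrays, which follows nearly from how they were chosen. They were taken as called higher and well above background on both 48 h arrays and no WT mock array.

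The largest falls were of another kind. Slc16a3, the lactate exporter MCT4, was at 5.82 and 5.92 in WT mock, 5.55 and 5.58 in Fv2E-PERK mock and 0.60 and 0.45 at 48 h, a change of -5.35 (SE 0.17) or 40.68-fold (limma adjusted p = 1.85e-07). Bnip3, a mitophagy receptor, was at 8.61 and 8.63, 8.19 and 8.27, and 4.25 and 4.26 in the same groups, a change of -4.37 (SE 0.07, limma adjusted p = 1.39e-08). The 8 others of the 10 largest falls lay between -3.56 and -4.63. They were Mgarp (a mitochondrial protein, -4.63), Ankrd37 (-4.59), Ak4 (a mitochondrial adenylate kinase, -4.56), Pdk1 (a kinase that inhibits pyruvate dehydrogenase, -4.45), Fam162a (-4.37), P4ha1 (collagen prolyl hydroxylase, -3.63), Rnf186 (an ER ubiquitin ligase, -3.62) and 4933407L21Rik (-3.56). Slc16a3, Bnip3, Ankrd37, Ak4, Pdk1, Fam162a and P4ha1 are known as genes that low oxygen induces. All 10 fell under each of the 4 scalings. Genes that were above background in WT mock and on neither 48 h array included Sval2 (at least 10.77-fold lower), Stc1, a secreted glycoprotein (at least 7.701-fold), Casr, the calcium-sensing receptor (at least 7.169-fold), Gatm, the creatine synthesis enzyme (at least 6.916-fold), and Slc38a11, a putative amino acid transporter (at least 5.676-fold).

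**Figure D2:**
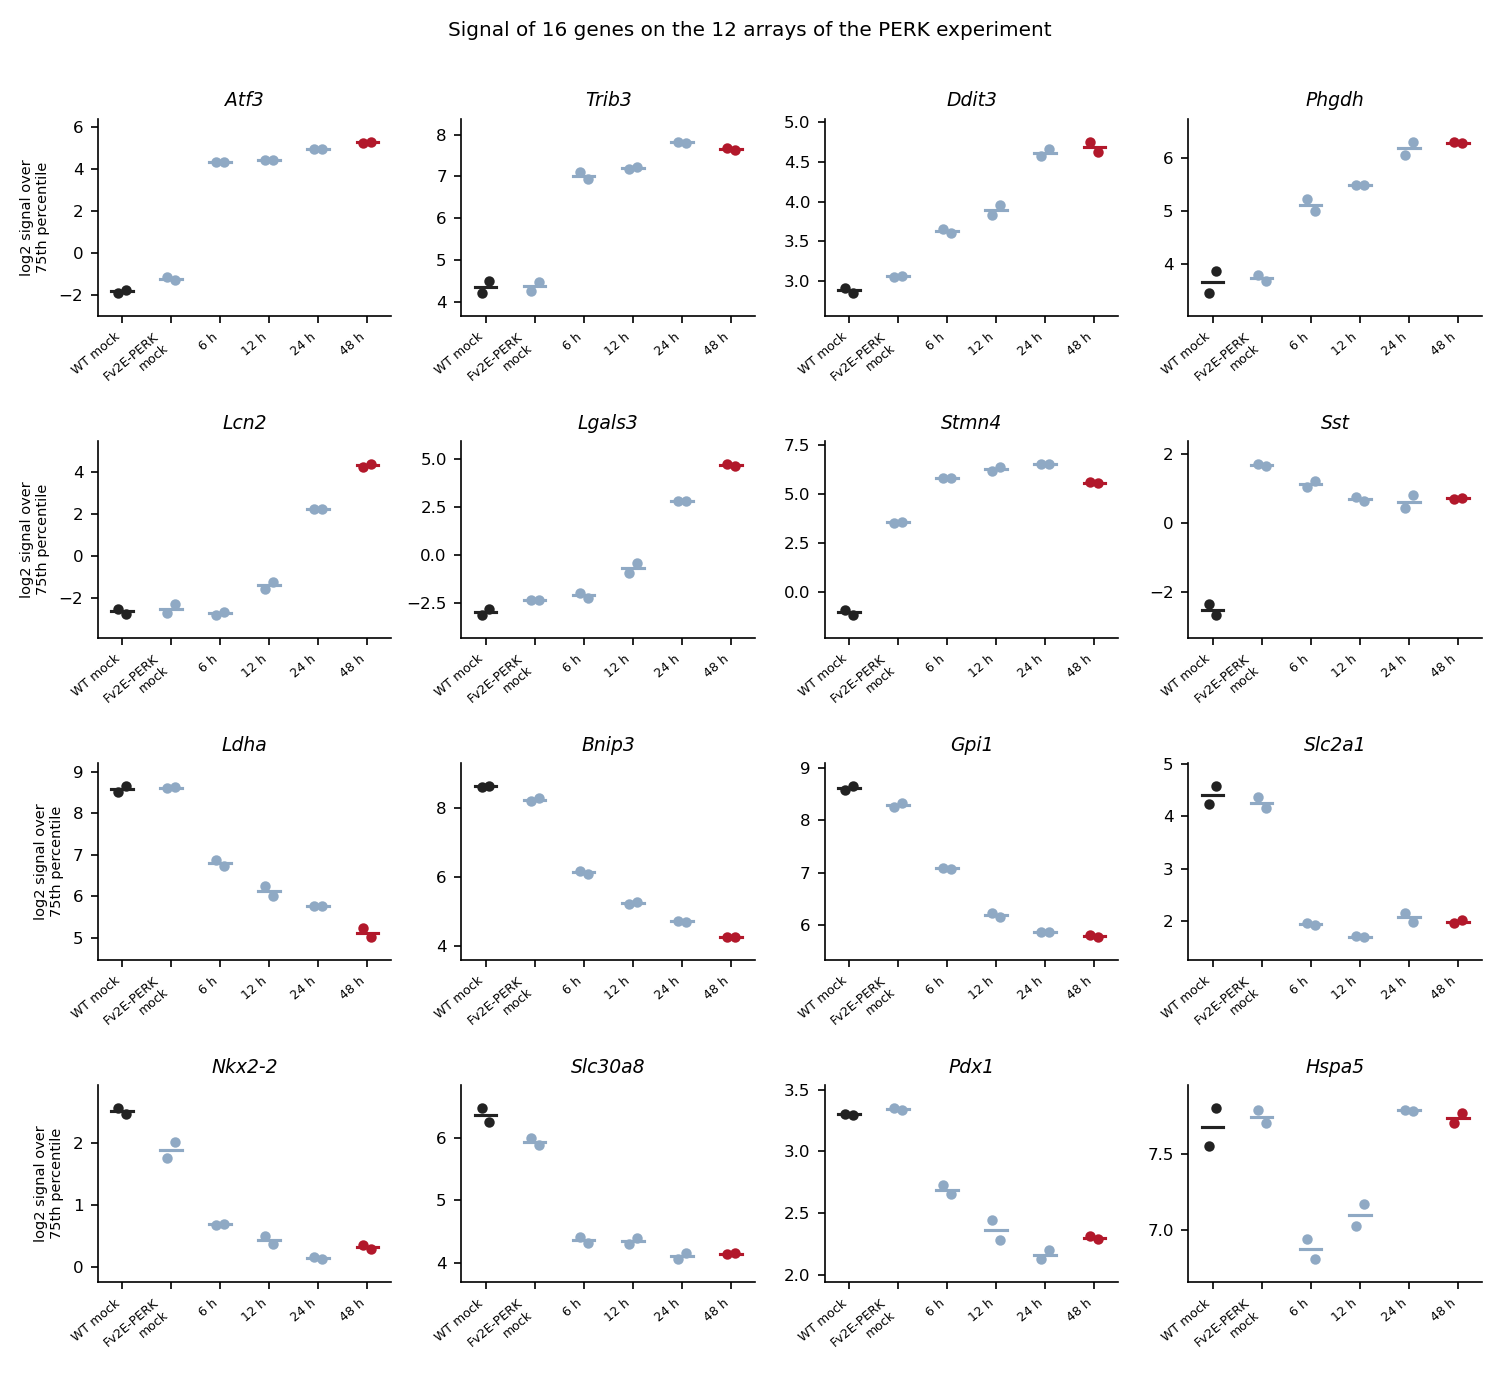
Log2 signal over the array's 75th percentile of 16 genes on the 12 arrays of the PERK experiment, 1 point per array and a bar at the mean of the 2 arrays of a group; WT mock is black, the 48 h arrays red, and Fv2E-PERK mock and the 6, 12 and 24 h arrays, which lay on another slide, blue. Atf3, Trib3, Ddit3, Phgdh, Lcn2 and Lgals3 are higher and Ldha, Bnip3, Gpi1, Slc2a1, Nkx2-2, Slc30a8 and Pdx1 lower on both 48 h arrays than on both WT mock arrays, while Stmn4 and Sst are already higher in Fv2E-PERK mock and the Hspa5 values overlap.

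Of 8 ISR transcription factors 6 were higher at 48 h and 1 lower, with a median change of 1.54 against -0.10 for all entries, and the median stayed above 0 under the other scalings (1.65 to 2.25). Beside Atf3, Jdp2 rose from -2.61 and -2.40 to 1.90 and 1.81 (4.36, SE 0.12), and Cebpb, a C/EBP factor that ATF4 and CHOP pair with, from 2.0 and 2.26 to 4.86 and 4.77 (2.69, SE 0.10). Ddit3, which encodes CHOP, rose from 2.92 and 2.85 to 4.75 and 4.62, a change of 1.80 (SE 0.08, limma adjusted p = 8.91e-07). Atf4 itself, which is regulated mainly in translation, was at 7.53 and 7.86 in WT mock and 7.98 and 7.94 at 48 h. Its change of 0.26 (SE 0.12, limma adjusted p = 0.0753) was not called under this scaling. Under each other scaling Atf4 was called higher, at 1.14 with quantile normalization, 1.20 with normexp and 0.97 with spike-in scaling. The 1 called lower was Atf5 (-0.25), which was above 0 under all 3 other scalings.

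The ISR genes that feed back on the response or slow growth moved both ways: 5 of 9 rose and 4 fell, with a median of 0.70. Ppp1r15a, the phosphatase subunit that reverses eIF2 phosphorylation, rose from 3.03 and 3.17 to 6.73 and 6.71 (3.62, SE 0.08, limma adjusted p = 4.62e-08). Trib3, a pseudokinase that dampens ATF4 and CHOP, rose from 4.21 and 4.51 to 7.67 and 7.63 (3.29, SE 0.12). Chac1 (1.85), the translation repressor Eif4ebp1 (1.20) and Sesn2 (0.70), which restrains mTORC1, also rose. The 4 that fell were Stc2, a secreted glycoprotein above background in WT mock and on no 48 h or Fv2E-PERK mock array (at least 2.242-fold lower at 48 h), the oxidoreductase Ero1a (-1.47), the mTORC1 inhibitor Ddit4 (-1.22) and the lipoprotein receptor Vldlr (-0.61, above 0 with spike-in scaling). Ero1a and Ddit4 are known to be induced by low oxygen as well as by the ISR. Of the 3 secreted hormones of the list, Fgf21 rose to -2.67 and -2.88 from below background (at least 3.091-fold) and the adrenomedullin relative Adm2 rose from 1.97 and 1.87 to 3.19 and 3.19 (1.27, SE 0.13). Gdf15 was at -3.06 and -3.38 in WT mock and -2.98 and -3.29 at 48 h and was not called.

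Among the eIF2 kinases and eIF2 subunits 4 of 8 genes rose and 1 fell, with a median of 0.38. Eif2ak3, the cells' own PERK gene, was at 1.73 and 2.05 in WT mock, 1.80 and 1.73 in Fv2E-PERK mock and 2.06 and 1.93 at 48 h. Its change of 0.11 (SE 0.15, limma adjusted p = 0.552) was not called, and whether its probe covers the kinase part carried by the transgene is not known, so it does not check the labels. Ppp1r15b, the constitutive partner of the eIF2 phosphatase, rose by 1.71, Eif2s2 (the beta subunit) by 1.5, Eif2s1 (the alpha subunit that PERK phosphorylates) by 0.77 and the haem-regulated kinase Eif2ak1 by 0.59. Eif2s3x fell by 0.53 on 1 probe (0.18 with spike-in scaling) and was called higher on another (0.29).

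Most genes that supply amino acids rose. Of 13 amino acid and one-carbon enzymes tested 12 rose and 1 fell, with a median of 1.27 (1.42 to 1.98 under the other scalings), and all 9 tested transporters rose, with a median of 2.16 (2.32 to 2.86). Phgdh, the first enzyme of serine synthesis, was at 3.45 and 3.87 in WT mock, 3.79 and 3.68 in Fv2E-PERK mock and 6.31 and 6.28 at 48 h (2.64, SE 0.15, limma adjusted p = 2.72e-06). Cth, which makes cysteine, rose from -0.69 and -0.50 to 2.25 and 2.40 (2.92, SE 0.14), and Aldh18a1, which begins proline synthesis, by 2.56. Asns, asparagine synthetase, rose less, from 6.31 and 6.72 to 7.30 and 7.26 (0.76, SE 0.12, limma adjusted p = 0.000676). Cbs, the enzyme that precedes Cth in the same pathway, fell by 1.34 under this scaling and fell under the other scalings too. Of the transporters, Slc7a11 rose from below background to -0.43 and -0.45 (at least 15.52-fold), Slc6a9, a glycine transporter, by 2.56 and Slc7a3, a transporter of cationic amino acids, by 2.52.

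Of 20 cytosolic aminoacyl-tRNA synthetases, the enzymes that load tRNAs with amino acids, 17 rose and 1 fell, with a median of 0.82 (1.1 to 1.52 under the other scalings, 1.27 with another probe). Aars was at 4.05 and 4.24 in WT mock, 4.35 and 4.31 in Fv2E-PERK mock and 6.44 and 6.45 at 48 h (2.30, SE 0.09, limma adjusted p = 5.07e-07). Nars rose by 1.92 and Vars by 1.81. Dars (-0.28) and Kars (-0.09) were not called. Qars was the 1 that fell, from 4.19 and 4.20 to 3.05 and 2.99 (-1.18, SE 0.07), and it was lower in Fv2E-PERK mock too, at 3.78 and 3.71. Between the mock groups 0 of these 20 genes were called higher and 1, Qars, lower, and in the 2 amino acid lists 1 (Slc7a1) was called higher and 2 (Cbs and Pck2) lower, against 9.23% and 10.8% of all entries.

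The chaperones and folding enzymes of the ER, which the ATF6 and IRE1 branches of the unfolded protein response are known to control, did not rise with these genes under this scaling: 0 of 15 were called higher and 7 lower, with a median of -0.25. Hspa5, the ER chaperone BiP, was at 7.55 and 7.80 in WT mock, 7.78 and 7.70 in Fv2E-PERK mock and 7.70 and 7.77 at 48 h, so that the groups overlapped (0.06, SE 0.10, limma adjusted p = 0.634). Under each other scaling Hspa5 was called higher, at 0.91 with quantile normalization, 0.96 with normexp and 0.76 with spike-in scaling. Dnajc3, a co-chaperone that inhibits PERK, fell from 2.92 and 3.14 to 1.86 and 1.82 (-1.19, SE 0.09), Pdia6 by 0.84 and Manf by 0.78. The direction of the list turns with the scaling: its median was 0.09 with quantile normalization (7 higher, 4 lower), 0.03 with normexp (6 higher, 4 lower) and 0.46 with spike-in scaling (7 higher, 0 lower), and -0.16 without WT mock replicate 2. In the list of ER-associated degradation 1 of 8 rose (Herpud1, 0.63) and 5 fell, among them Edem1 (-1.05), Derl2 (-0.79) and Derl3 (-0.74), and the median of -0.49 became 0.22 with spike-in scaling. Of 5 genes of the IRE1 and ATF6 branches, Atf6 rose by 0.61, Ern1 (-0.38), Mbtps1 (-0.65) and Mbtps2 (-0.54) were called lower and turned above 0 with spike-in scaling, and Xbp1 was not called (0.03). The median of these 5 was -0.38, and -0.22 without WT mock replicate 2. Between the mock groups their median was already -0.36, with 0 called higher and 2 lower in Fv2E-PERK cells. Against Fv2E-PERK mock their median at 48 h was 0.12, with 2 called higher and 2 lower. Xbp1 was called higher under each other scaling, at 0.62 with quantile normalization, 0.75 with normexp and 0.73 with spike-in scaling.

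**Figure D3:**
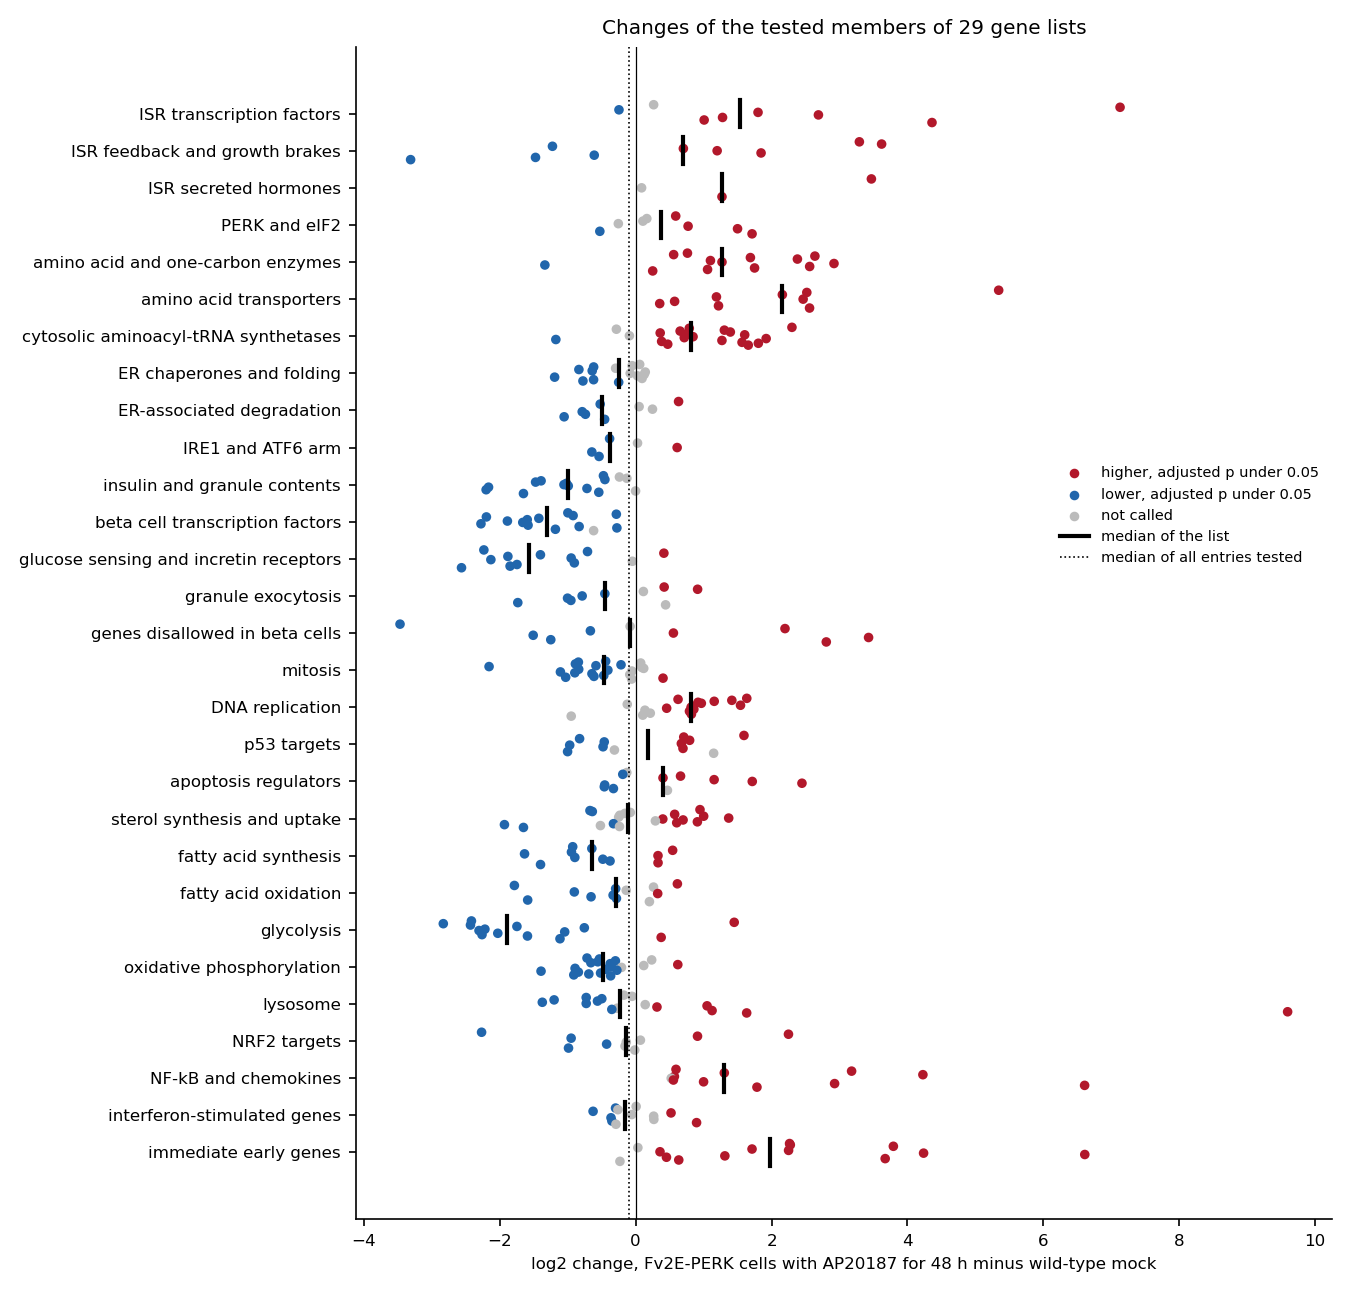
Log2 change from WT mock to the 48 h arrays of each tested member of 29 gene lists, 1 point per gene, red where called higher, blue where called lower and grey where not called by the limma fit; the black bar is the median of the list and the dotted line the median of all entries tested. The transporters (9 of 9 higher) and the synthetases (17 of 20 higher) lie mostly to the right and glycolysis (12 of 14 lower) to the left; 14 of the 29 medians change side under another scaling.

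Most beta cell transcription factors fell. Of 14 beta cell transcription factors tested 13 were lower and 0 higher, with a median of -1.30 (-0.60 to -1.24 under the other scalings, with 7 to 12 called lower). In bulk samples fewer cells of a type and less RNA per cell cannot be told apart, here and in the groups below. Nkx2-2 was at 2.56 and 2.47 in WT mock, 1.76 and 2.02 in Fv2E-PERK mock and 0.34 and 0.28 at 48 h (-2.20, SE 0.10, limma adjusted p = 8.91e-07). Mlxipl, the glucose-responsive factor ChREBP, fell from 6.11 and 6.08 to 3.86 and 3.77 (-2.28, SE 0.08) and Pax6 from 3.18 and 3.02 to 1.19 and 1.24 (-1.89, SE 0.09). Pdx1, a factor needed for beta cell identity and insulin transcription, was at 3.30 and 3.30 in WT mock, 3.35 and 3.34 in Fv2E-PERK mock and 2.32 and 2.29 at 48 h (-1.0, SE 0.08, limma adjusted p = 1.21e-05). Mafa, an activator of the insulin gene, fell by 0.28 (SE 0.09, limma adjusted p = 0.0210) and was at 0.42 with spike-in scaling. Glis3 (-0.62) was not called, and was below background in Fv2E-PERK mock (at least 1.51-fold lower than in WT mock).

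Glucose sensing genes and incretin receptors fell in 10 of 12 cases, with 1 higher and a median of -1.57 (-0.70 to -1.16 under the other scalings, -0.95 among entries above background on all 12 arrays). Trpm5, a cation channel of beta cells, went from 3.04 and 2.37 to 0.22 and 0.06 (-2.56, SE 0.19), and Gipr, the receptor of the incretin GIP, from 2.50 and 2.30 to 0.36 and 0.18 (-2.13, SE 0.15). Slc2a2, the glucose transporter GLUT2, was dim, at -2.43 and -3.79 in WT mock and -6.03 and -4.66 at 48 h, and well above background on 1 of the 48 h arrays (-2.23, SE 0.56, limma adjusted p = 0.00806). Kcnj11, the pore of the ATP-sensitive potassium channel, was the 1 that rose (0.42), while its partner Abcc8 fell (-1.40). With another probe where a symbol had several, 0 genes of this list were called higher and 10 lower.

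Insulin and the proteins of its granule fell in 12 of 15 cases with 0 higher and a median of -0.99, which shrank to -0.39 with quantile normalization (2 higher, 8 lower), -0.34 with normexp (3 higher, 8 lower) and -0.29 with spike-in scaling (1 higher, 5 lower). The list is bright, with a median signal of 8.93 and 9.18 in WT mock and 7.90 and 7.94 at 48 h. Of all entries with a mean signal over 6, 85.1% were called lower, with a median of -0.82. Slc30a8, the zinc transporter of the insulin granule, was at 6.47 and 6.24 in WT mock, 5.99 and 5.88 in Fv2E-PERK mock and 4.14 and 4.16 at 48 h (-2.20, SE 0.10, limma adjusted p = 7.90e-07). Scg5, a chaperone of the prohormone convertase PC2, fell by 2.17 and Ero1b, which helps proinsulin to fold, by 1.65. The insulin genes moved less: Ins1 went from 9.95 and 10.14 to 9.51 and 9.64 (-0.47, SE 0.11, limma adjusted p = 0.00603), a fall that was 0.00 with quantile normalization and 0.23 with spike-in scaling, and Ins2 from 9.32 and 9.42 to 9.08 and 9.19 (-0.24, SE 0.13, limma adjusted p = 0.133), which was 0.44 with quantile normalization. Of the genes for granule release 2 of 9 rose (Stx1a, 0.91, and Snap25, 0.42) and 5 fell, among them Sytl4 (-1.74) and Rab27a (-1.0), with a median of -0.45 (0.25 with spike-in scaling). The genes that beta cells normally keep silent did not move one way, with 4 higher and 4 lower of 9 tested. Ldha, Maf (-1.51), Cxcl12 (-1.25) and Oat (-0.67, above 0 with spike-in scaling) fell, and Smad3 (at least 2.948-fold) and Zfp36l1 (at least 1.555-fold) rose from below background with Acot7 (2.20) and Igfbp4 (0.56).

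Glycolysis had the lowest median of the 29 lists, -1.89, with 12 of 14 tested genes lower and 2 higher, and it kept a median below 0 under the other scalings (-1.18 to -1.44, with 9 to 12 called lower). Gpi1, the glucose phosphate isomerase, was at 8.59 and 8.66 in WT mock, 8.27 and 8.33 in Fv2E-PERK mock and 5.81 and 5.77 at 48 h (-2.83, SE 0.07, limma adjusted p = 6.67e-08). Pfkl, a phosphofructokinase subunit, fell by 2.43 and Slc2a1, the glucose transporter GLUT1, from 4.23 and 4.58 to 1.96 and 2.02 (-2.42, SE 0.13). Ldha, which turns pyruvate into lactate, was at 8.52 and 8.66, 8.61 and 8.63, and 5.23 and 5.01 in WT mock, Fv2E-PERK mock and at 48 h (-3.47, SE 0.11, limma adjusted p = 2.29e-07). The isoforms that rose were the hexokinase Hk1, from 0.36 and 0.38 to 1.80 and 1.83 (1.45, of which 1.04 was present in Fv2E-PERK mock), and the enolase Eno2 (0.38). Subunits of oxidative phosphorylation were called lower in 16 of 20 cases and higher in 1 (Uqcrc1, 0.62), led by Cox6c (-1.39), Atp5c1 (-0.91) and Cox4i1 (-0.89), but the median of -0.48 became 0.03 with quantile normalization (8 higher, 4 lower), 0.01 with normexp and 0.23 with spike-in scaling.

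The cell cycle lists moved apart. Of 19 DNA replication genes 14 were higher and 0 lower, with a median of 0.82 (0.94 to 1.52 under the other scalings), whereas of 21 mitosis genes 1 was higher (Tpx2, 0.40) and 14 lower, with a median of -0.47 that became 0.24 with spike-in scaling (6 higher, 1 lower). Mcm2, a subunit of the replicative helicase, went from 3.46 and 3.47 to 5.14 and 5.06 (1.64, SE 0.08, limma adjusted p = 1.08e-06), Cdc6, which loads that helicase, from -0.48 and -0.40 to 1.15 and 1.06 (1.54, SE 0.10), and Mcm4 rose by 1.42. Part of the replication genes' difference was present between the mock groups, where 8 of 19 were called higher in Fv2E-PERK cells with a median of 0.31. Aurkb, a mitotic kinase, was above background on neither 48 h array (at least 3.413-fold lower), Cenpf, a kinetochore protein, fell by 1.11 and Nusap1, a spindle protein, by 1.03. Ccnb1, cyclin B1, was called lower on 1 probe (-0.44, 0.26 with spike-in scaling) and higher on another (0.67). Between the mock groups 5 of 21 mitosis genes were called higher and 0 lower.

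Genes of p53 and of cell death split. Of 12 tested p53 targets 5 rose and 5 fell, with a median of 0.18 (-0.16 with Fas, dim in WT mock, at its bound, -0.02 with normexp, and 0.11 without WT mock replicate 1). Cdkn1a, the inhibitor of cyclin-dependent kinases p21, rose from 3.01 and 2.98 to 4.56 and 4.62 (1.59, SE 0.07), though another of its probes gave -0.28, while Perp (-1.0) and Sesn1 (-0.97) fell. Among 11 tested apoptosis regulators 5 rose and 4 fell, with a median of 0.40 that was 0.23 with normexp and 0.07 without WT mock replicate 1. The risers were led by Bid, from -0.53 and -0.80 to 1.73 and 1.84 (2.45, SE 0.10, limma adjusted p = 6.59e-07), Bbc3, which encodes PUMA (1.72), and Bcl2l11, which encodes BIM (1.15), all of the family of BH3 proteins that promote death.

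Lipid genes differed by pathway and by step. Of 20 sterol genes 8 rose and 5 fell, with a median of -0.12 that was above 0 under the 3 other scalings (0.02 to 0.59) and without WT mock replicate 2 (0.0027), and that was -0.22 without WT mock replicate 1. Lss, which closes the sterol rings, rose by 1.37, while the sterol carrier Stard4 fell by 1.65. Between the mock groups 8 of the 20 were called higher in Fv2E-PERK cells and 0 lower. In fatty acid synthesis 3 of 11 rose (Fasn, 0.54, Elovl6, 0.33, and Me1, 0.33) and 8 fell. The falls were led by the desaturases Scd2 (-1.64) and Scd1 (-0.95) and the regulator Srebf1 (-1.40). The median of -0.65 became 0.06 with spike-in scaling. Against Fv2E-PERK mock 0 of these 11 were called higher and 10 lower at 48 h, with a median of -0.67. Between the mock groups 2 were called higher in Fv2E-PERK cells and 1 lower. In fatty acid oxidation 2 of 12 rose and 7 fell, led by Cpt2 (-1.79) and Hadh (-1.59), and the median of -0.29 became 0.42 with spike-in scaling.

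Lysosomal genes were 5 higher and 7 lower of 16, with a median of -0.22 that was 0.31 to 0.48 under the other scalings. Beside Gpnmb, Sqstm1, the autophagy receptor p62, rose from 3.34 and 3.62 to 5.11 and 5.12 (1.63, SE 0.09) and Tfeb, a regulator of lysosomal genes, by 1.12. Of 10 targets of NRF2, the factor that answers oxidative stress, 2 rose and 4 fell: Hmox1, haem oxygenase, went from 2.67 and 2.80 to 4.95 and 5.01 (2.25, SE 0.08), and Nqo1, a quinone reductase, from 1.78 and 1.59 to -0.54 and -0.62 (-2.27, SE 0.10). Gclc rose by 0.91 and Gclm, the other subunit of the same enzyme of glutathione synthesis, fell by 0.95. The median of the list, -0.15, became 0.56 with spike-in scaling.

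NF-kB genes and chemokines were higher in 10 of 11 tested cases and lower in 0, with a median of 1.30 (1.53 with dim genes at their bound, 0.89 to 2.01 under the other scalings, and 0.59 with 6 higher among entries above background on all 12 arrays). Relb, a subunit of the noncanonical NF-kB dimer, was at -0.42 and -0.38 in WT mock, 0.64 and 0.61 in Fv2E-PERK mock and 3.80 and 3.85 at 48 h (4.23, SE 0.07, limma adjusted p = 1.86e-08). Nfkb2, its partner, went from -1.11 and -0.89 to 2.18 and 2.17 (3.18, SE 0.13). The chemokine gene Cxcl10 rose from below background to 0.20 and 0.23 (at least 24.46-fold). Interferon-stimulated genes, with which Cxcl10 is often counted, were 2 higher and 4 lower of 12, with a median of -0.16 (0.55 with spike-in scaling, -0.02 without WT mock replicate 1 and -0.28 without 48 h replicate 2). Psmb8, an immunoproteasome subunit, rose by 0.90 and was higher by 0.99 in Fv2E-PERK mock, Irf7 rose by 0.52, and Irf1 fell by 0.63, a fall that was 0.08 with spike-in scaling.

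Immediate early genes, which answer growth factor and stress signals within minutes, were higher in 12 of 14 tested cases and lower in 0, with a median of 1.98 (1.47 to 2.69 under the other scalings). Egr1 was at -0.74 and -0.04 in WT mock, 1.81 and 1.65 in Fv2E-PERK mock and 3.82 and 3.88 at 48 h (4.24, SE 0.21, limma adjusted p = 1.64e-06). Egr2 rose from below background to 0.55 and 0.63 (at least 31.8-fold) and Fosl1, an AP-1 subunit, to -2.12 and -2.19 (at least 4.736-fold). Some were higher without the drug: 5 of 14 were called higher in Fv2E-PERK mock than in WT mock, Egr1 by 2.12 and Egr2 at least 2.248-fold. Dusp1, a phosphatase of the same response, was at 1.67 and 2.19 in WT mock and 1.73 and 1.67 at 48 h and was not called.

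**Figure D4:**
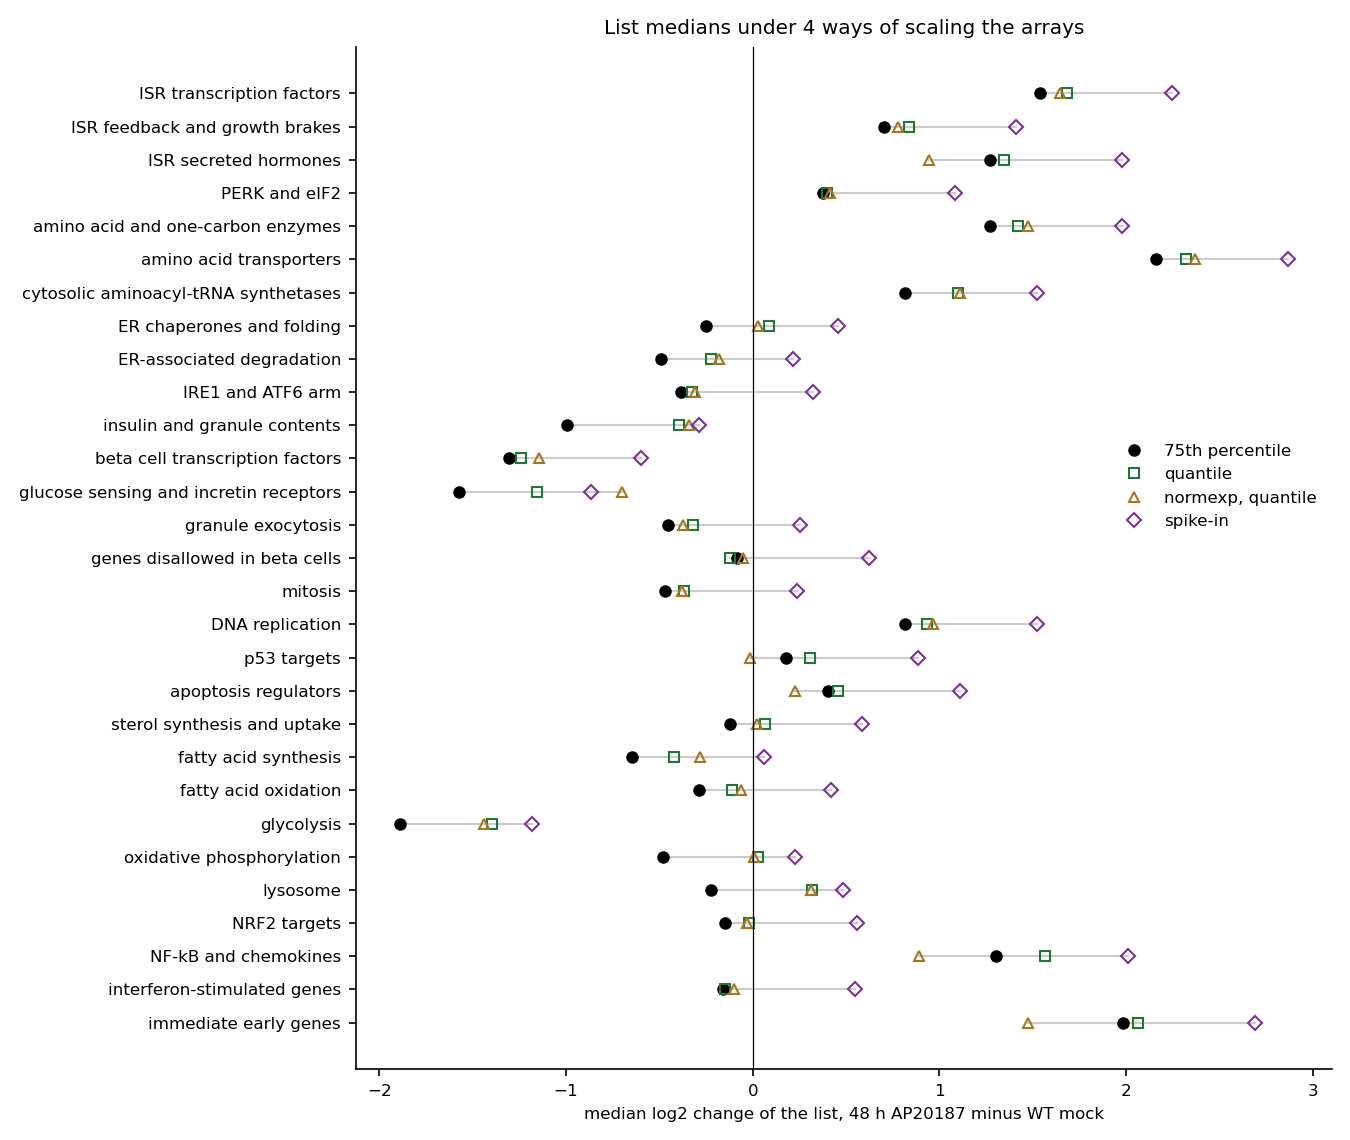
Median log2 change from WT mock to the 48 h arrays of 29 gene lists under 4 ways of scaling the arrays, 1 symbol per scaling and a grey line over their range. The medians of 11 lists stay above 0 and those of 4 (insulin and granule contents, beta cell transcription factors, glucose sensing, glycolysis) below 0 under all 4 scalings, while those of 14 lists, ER chaperones and oxidative phosphorylation among them, cross 0.

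Some of the differences between the 48 h arrays and WT mock were present without AP20187. Stmn4 was at -0.89 and -1.16 in WT mock and already at 3.52 and 3.61 in Fv2E-PERK mock, against 5.63 and 5.57 at 48 h. Ecel1 was at -2.40 and -2.26, 2.30 and 2.33, and 2.40 and 2.49 in these groups, so that its rise of 4.77 held a mock difference of 4.64. Sst, the somatostatin gene of islet delta cells, was at -2.34 and -2.66 in WT mock, 1.70 and 1.64 in Fv2E-PERK mock and 0.69 and 0.72 at 48 h, higher than in WT mock by 3.21 and lower than in Fv2E-PERK mock by 0.97. Rhox5, a homeobox gene, and Cd81, a tetraspanin, followed the same order, with mock differences of 5.16 and 4.35. Gm773 (at least 23.22-fold), Magea5 (at least 17.58-fold) and Magea8 (at least 23.27-fold) were higher in Fv2E-PERK mock than in WT mock, where they were below background, and Nrn1, above background on 1 WT mock array, was higher by 5.31. Magea5 and Magea8 belong to a family of genes expressed in germ cells and tumours. Of the genes already lower in Fv2E-PERK mock, Ccdc65 was at 3.27 and 3.0, 1.29 and 1.28, and 0.00 and -0.15 in the 3 groups. 1700016C15Rik, Cabp5, Muc4 and Tex22 had mock differences of -2.08, -1.94, -1.83 and -1.82, and for Gpx3, Clip4, Wnt4, Gatm and Stc2 neither Fv2E-PERK mock array was above background. Slide and group cannot be told apart in these mock differences.

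Other genes had close levels in both mock groups. Ppp1r15a, Lcn2, Snhg17 (a host gene of small nucleolar RNAs), H4c17 (a histone gene) and Ostn (the secreted peptide osteocrin) were the largest rises over Fv2E-PERK mock, 3.67 to 6.84, among genes above background in all 3 groups whose mock levels were within 0.25 of each other. Snhg17 was at -1.44 and -1.26 in WT mock, -1.34 and -1.40 in Fv2E-PERK mock and 3.18 and 3.24 at 48 h. Counting genes below background in both mock groups, Acox2, Tmem140, Ppef2 and Nyx joined them, with rises of at least 90.24, 45.83, 44.05 and 18.66-fold over WT mock. The matching falls were those of Mgarp, Gm13315, Ldha, Lratd1 and Aldoc, from -3.11 to -4.52, and, to below background at 48 h, Slc38a11. Aldoc, a glycolytic aldolase, was at 5.80 and 5.81, 5.83 and 5.82, and 2.72 and 2.71 in WT mock, Fv2E-PERK mock and at 48 h.

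**Figure D5:**
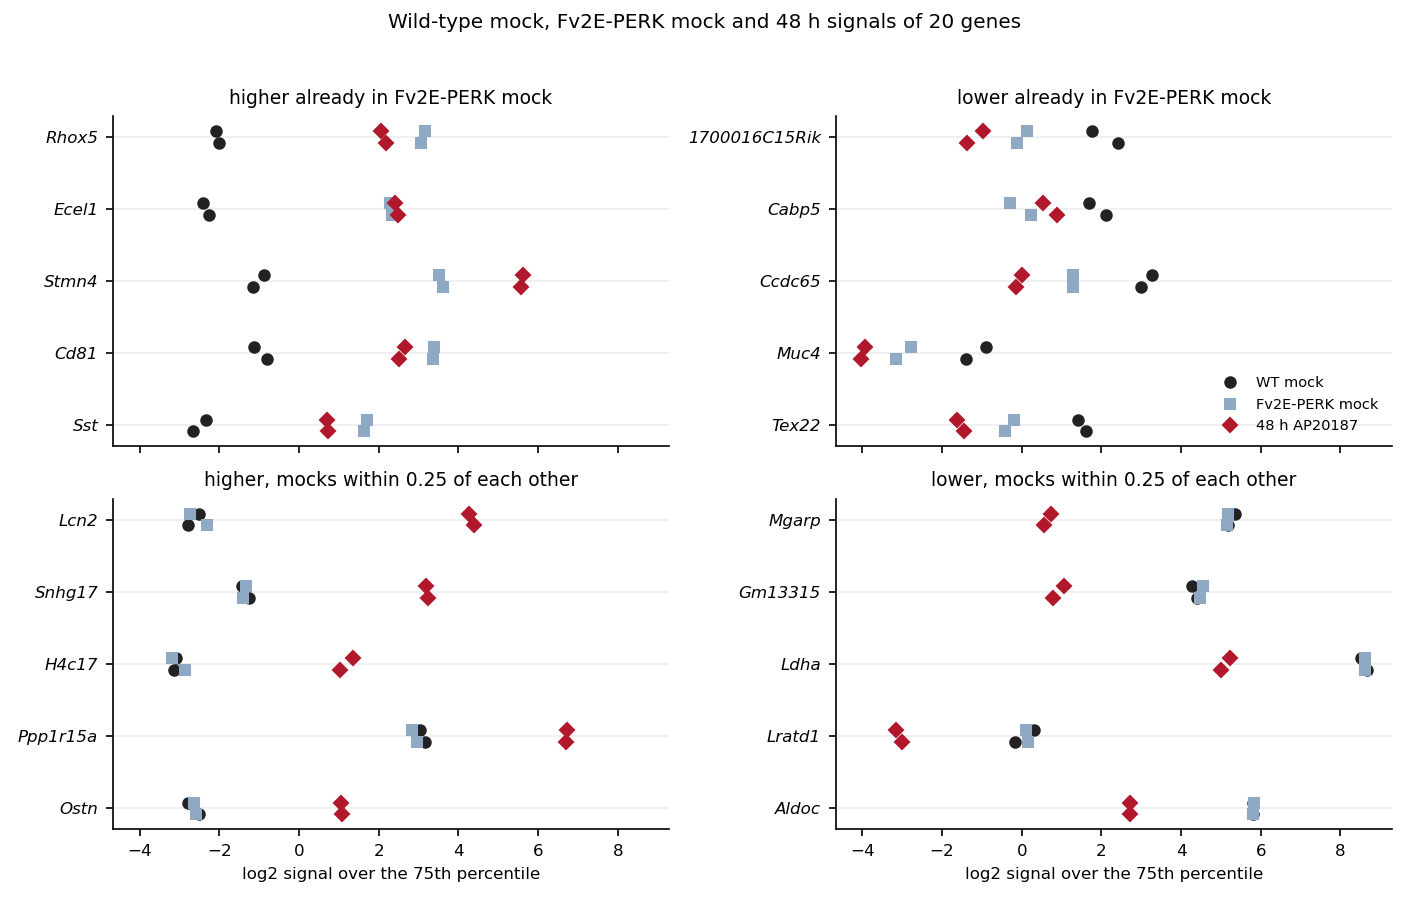
Log2 signal over the array's 75th percentile of 20 genes in WT mock (circles), Fv2E-PERK mock (squares) and at 48 h of AP20187 (diamonds), 1 symbol per array, in 4 panels of 5 genes. In the upper panels the squares lie apart from the circles (Ecel1 near 2.30 against -2.40), and in the lower panels both mock groups lie together (Ldha from 8.52 to 8.66) with the diamonds apart from them.

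Few markers of other cell types passed the filter on dim probes, and their part in the results was not tested. Of 7 genes for other islet and gut hormones 6 were tested, 4 higher (Sst, Ghrl, Ppy and Gcg) and 1 lower (Cck, -0.52, above 0 under the 3 other scalings), and Pyy (0.27) was not called. Their summed linear signal was 844 and 919 in WT mock and 618 and 671 at 48 h. Cck alone had a change below 0, so the fall of the sum rests on Cck under this scaling. The ghrelin gene Ghrl rose from -2.44 and -1.71 to 0.04 and 0.01 (2.10, SE 0.22), Ppy, pancreatic polypeptide, by 1.59, and Gcg, glucagon, by 0.75, while Gcg was higher in Fv2E-PERK mock than in WT mock by 1.31. Of 10 acinar markers 3 were tested and 2 were higher, among them Ctrb1 (0.91), and of 7 duct markers 3, with Spp1 higher by 2.62 (2.13 in Fv2E-PERK mock) and Krt7 lower by 1.65. The summed acinar signal was 0.567 and 0.646 in WT mock and 0.783 and 0.846 at 48 h. The summed duct signal was 5.52 and 8.40 in WT mock, 24.2 and 19.4 in Fv2E-PERK mock and 29.2 and 31.4 at 48 h. Of 8 fibroblast and smooth muscle markers 4 were tested and Dcn and Thy1 rose from below background (at least 4.522-fold and 1.741-fold), while Col1a1, Col3a1, Pdgfrb and Lum did not pass the filter, and the summed signal was 0.167 and 0.219 in WT mock and 0.446 and 0.444 at 48 h, under the array's 75th percentile. Of 5 endothelial and 7 immune markers 2 each were tested, and Kdr (-0.41, 0.30 with spike-in scaling) and Cd3e (-1.20) were lower. Ptprc, the general leukocyte marker, did not pass the filter. The summed signals were 17.3 and 18.5 in WT mock and 13.6 and 13.4 at 48 h for endothelial markers, and 25.7 and 23.5 against 26.1 and 29.8 for immune markers. Of 9 heart muscle markers 4 were tested and Myl2 (at least 1.941-fold), Myh6 (at least 1.13-fold) and Nppa (0.54) were higher. Myh6 was not called with normexp (0.23, limma adjusted p = 0.0591). Myl2, Myh6, Dcn and Thy1 were dim in WT mock and could pass the filter only through another group. That they were higher thus follows in part from the filter. Of 10 skeletal muscle markers 4 were tested, with Tnnc2 higher by 1.41 and Actn3 (-1.0) and Acta1 (-0.64, 0.07 with spike-in scaling) lower. Summed heart muscle signals were 0.198 and 0.241 in WT mock and 0.387 and 0.317 at 48 h, and skeletal muscle signals 0.958 and 0.856 against 0.753 and 0.822. The defining muscle genes Tnnt2, Actc1 and Ckm did not pass the filter.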

How the data were processed

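RNA was amplified, labelled with Cy3 and hybridised to 1-colour arrays, per the labels' protocols. The deposited spot intensity is the processed signal of Agilent Feature Extraction 10.7.1.1, per the file headers and the submitters' processing notes, background-subtracted and not scaled between arrays. The deposited series matrix holds log2 values that match these signals scaled on the 75th percentile, minus a baseline per probe that is unknown (correlation of array differences at least 0.9998); its column medians were 0.12 and 0.09 for WT mock, 0.19 and 0.33 for Fv2E-PERK mock and -0.20 and -0.18 at 48 h.

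Each array holds 59305 spots of 55681 probes beside 3671 control spots, which were left out with 108 to 199 outlier spots per array. No spot was saturated, and precision is limited by how few arrays there are. A RefSeq table of GRCm38.p6 named 26582 probes, and 29099 have no symbol. From 37208 entries (20145 symbols, with the probe brightest on average across the series for 5370 with several probes), 23388 were tested: those well above background throughout at least 1 group. An entry dim in 1 of the compared groups could enter only through another group, so its difference follows in part from this filter. In 154 symbols another probe was called the opposite way.

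limma 3.58.1 in R 4.3.3 fitted 1 mean per group to log2 of the processed signal over the array's 75th percentile, on the 12 arrays of the PERK experiment, with p-values adjusted (Benjamini-Hochberg) over all tested entries and called under 0.05. The fit was tested on simulated data. For 1 WT mock array the replicate number in the title was used, since its source name differs.

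Members and lists were chosen with earlier results of these data known. Named were the 10 largest rises and falls above background in both groups, the 5 brightest per direction that were below background in the other group, the 3 largest called changes and the largest uncalled one of each list, 10 fixed genes, and per direction the 5 largest differences already present in Fv2E-PERK mock and the 5 largest from it where both mocks were within 0.25. The last were also taken among genes above background in all 3 groups, an addition made because values near background have no order. Members that make up counts of 5 or fewer, and some others, were named after their values were seen. A few genes that this rule names are not reported here. Alternatives were quantile normalization, normexp (offset 50) on the median signals, the series matrix, other filters on dim probes, the compared groups alone, a replicate block, another probe, spike-in scaling and leaving out each array. The replicate numbers do not pair the arrays (correlation of deviations 0.0589 between WT mock and 48 h).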

Additional observations from a re-analysis of the deposited data

How the results depend on the processing

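The count of 14930 entries called between the 48 h arrays and WT mock was 14732 with quantile normalization, 14509 with normexp, 14919 with the series matrix, 18268 with no filter, 13277 with entries above background on all 12 arrays, 14199 with another probe, 12672 with spike-in scaling and 14773 from the 4 arrays alone, and ranged from 12640 to 13411 without 1 array. With the replicate block, whose numbers do not pair the arrays, it was 14992, and the counts against Fv2E-PERK mock and between the mock groups were 14421 and 4495. The count of 4679 between the mock groups was 1414 with spike-in scaling, 1338 from their 4 arrays alone, and 2642 to 3038 without 1 array. The share higher was 34.3% with no filter and 39.0% with entries above background on all 12 arrays, against 43.1%; with spike-in scaling it was 88.4% against 44.0% for 48 h against Fv2E-PERK mock and 75.8% against 46.1% between the mock groups, where it was 59.8% from the 4 arrays alone. A random slide block was not run, since slide and group overlap too little to estimate it.

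Medians of lists that changed sign were, with spike-in scaling, ER chaperones 0.4557, ER-associated degradation 0.2165, the IRE1 and ATF6 arm 0.3222, exocytosis 0.2523, disallowed genes 0.6243, mitosis 0.2363, sterol genes 0.5869, fatty acid synthesis 0.0607, fatty acid oxidation 0.4169, oxidative phosphorylation 0.2258, lysosome 0.4825, NRF2 targets 0.5583, interferon-stimulated genes 0.5461, and endothelial 0.4423, immune 0.3137 and skeletal muscle markers 0.0607. With quantile normalization and normexp they were ER chaperones 0.0896 and 0.0299, sterol genes 0.0649 and 0.0206, oxidative phosphorylation 0.0262 and 0.0054, and lysosome 0.3190 and 0.3114, and p53 targets -0.0153 with normexp. With entries above background on all 12 arrays p53 targets were at -0.3129, duct markers at 0.4836 and fibroblast markers at -0.2457, where fewer members are tested. With another probe, exocytosis was at 0.1134, p53 targets at -0.2981 and interferon-stimulated genes at 0.0068. Without 1 array, disallowed genes ranged from -0.2928 (without WT mock replicate 2) to 0.1295 (without WT mock replicate 1), and sterol genes from -0.2172 (without WT mock replicate 1) to 0.0027 (without WT mock replicate 2). Genes the naming rule chose that changed sign were, with spike-in scaling, Acta1 0.0669, Ins1 0.2315, Irf1 0.0790, Kdr 0.2961, Mafa 0.4212, Mbtps1 0.0609 and Mbtps2 0.1671; with quantile normalization, Ins1 0.0000 and Ins2 0.4358; with normexp, Ins2 0.4060; and with another probe, Cdkn1a -0.2833, Derl1 -0.3027 and Itgam -1.4277. Of the other genes named as lower, Vldlr (0.0961), Oat (0.0394), Ern1 (0.3222), Ccnb1 (0.2641), Atf5 (0.4602), Cck (0.1909), Eif2s3x (0.1784) and Arnt (0.3234) were above 0 with spike-in scaling, and Atf5 (0.4692, 0.4536) and Cck (0.1146, 0.1826) also with quantile normalization and normexp. Beyond the scaling and choice of probes, whose construction sets them, the cause was not tested.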

Other observations

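Genes known to be induced by low oxygen through HIF factors formed a list chosen after the values were seen, so its counts are a description only. Of 20 such genes 16 were tested, and 15 were lower and 1 higher at 48 h than in WT mock, with a median of -2.96 against -0.10 for all entries (-2.95 with quantile normalization and -2.26 with spike-in scaling, where 12 were called lower). Between the mock groups 11 of the 16 were called lower in Fv2E-PERK cells and 0 higher, with a median of -0.43. Of all entries 10.8% were called lower there. Against Fv2E-PERK mock 14 were lower and 1 higher at 48 h, with a median of -2.63. Beside those named in the report, Adm, the vasodilator peptide adrenomedullin, was at 1.74 and 1.76 in WT mock and -1.58 and -1.65 at 48 h (-3.36), and the oxygen-sensing hydroxylases Egln3 and Egln1 fell by 2.43 and 2.22. Vegfa, which drives vessel growth, fell by 0.90, Kdm3a, a histone demethylase, by 1.26 and Pfkfb3, a regulator of glycolysis, by 2.56. Ndrg1 was the 1 that rose (0.76). The genes of the factors themselves moved less. Hif1a was at 0.82 and 0.98 in WT mock and its change of 0.03 was not called, and Epas1 (0.18) was not called. Arnt was called lower on 1 probe (-0.38, above 0 with spike-in scaling) and was at 1.21 on another. Vhl, which does not encode a HIF factor, fell by 0.72 (-0.01 with spike-in scaling).

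The arrays at 6, 12 and 24 h lay on another slide and are no arrays of this contrast, and their levels are given with no test. Atf3 had already reached 4.34 and 4.34 after 6 h, with 4.45 and 4.41 after 12 h and 4.97 and 4.96 after 24 h, against 5.25 and 5.31 at 48 h. Lgals3 measured -1.98 and -2.24 after 6 h, near its Fv2E-PERK mock level, and at -0.93 and -0.44, then 2.83 and 2.83, at 12 and 24 h. Car6 went through -1.0 and -1.13, 0.02 and 0.44, and 3.13 and 2.70 at these times, against 4.14 and 4.10 at 48 h. Slc16a3 was at 1.43 and 1.29 at 6 h already, and Bnip3 passed through 6.17 and 6.08, 5.20 and 5.26, and 4.72 and 4.69.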
